A study of Mus musculus with 30 samples.

Results

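The circadian clock genes described here were ARNTL, PER1, PER2, PER3, NR1D1, NR1D2, DBP, TEF, BHLHE40 and BHLHE41, 10 of the 21073 genes in the deposited expression table, chosen by gene symbol. RNA-Seq of poly(A) RNA had been carried out on the extensor digitorum longus (EDL), a fast-twitch muscle of the lower leg, of 30 female wild type SJL/J mice. The mice formed 6 groups of 5, namely EAE-induced, OVA-immunized and unimmunized (Ctrl) mice, each on day 14 and on day 40. EAE, experimental autoimmune encephalomyelitis, is a model of multiple sclerosis. EAE-induced mice had received a proteolipid protein (PLP) peptide in complete Freund's adjuvant (CFA) without pertussis toxin, and OVA-immunized mice had received ovalbumin in the same adjuvant, so that the comparison with OVA holds the adjuvant constant and the comparison with Ctrl does not. Day 14 fell at the peak of the disease, which was mild in this model, and day 40 in the remission. Each mouse was sampled at a single day. Neither the age of the mice nor the hour at which the muscles were taken is given in the sources used here, so that differences between groups or days cannot be told apart from differences in the hour of dissection.

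The circadian clock is a transcriptional feedback loop that runs in nearly every cell, skeletal muscle fibres included, and sets a daily rhythm in metabolism. ARNTL (BMAL1) pairs with CLOCK and switches on genes that carry an E-box, among them the PER and CRY genes, whose proteins then inhibit that pair. In a second loop NR1D1 and NR1D2 (REV-ERB alpha and beta) repress ARNTL while the ROR proteins activate it. DBP and TEF are PAR bZIP transcription factors that act on D-box elements in output genes, and BHLHE40 and BHLHE41 (DEC1 and DEC2) are repressors that compete for the E-box. In muscle, ARNTL transcripts run nearly opposite in phase to those of DBP and the PER genes over the day.

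The elements named above were looked for in the promoter windows of RefSeq (GRCm38.p6, the sequence of mm10), which held 8 of the 10 genes in 11 windows. Each window spanned 250 bases before to 50 bases after an annotated start. The E-box CACGTG occurred in PER1, TEF and BHLHE41, 3 of 8 genes, and in 8.09% of the 27025 genes with a window. The D-box TTANGTAA, searched on both strands, occurred in PER3 at 2 places and in 2.72% of genes. The ROR element TAGGTCA occurred in ARNTL, at base 31 after the start, and in 2.97% of genes. TGGGTCA and the cAMP element TGACGTCA occurred in none of the 8. The sites are shown with the motif in capitals, since PER1, TEF and BHLHE41 are the members with the E-box and PER3 is the member with the D-box. DBP and NR1D2, which were also called in a comparison below, had windows without any of these motifs. PER1 and BHLHE41 are given as 30 bases around the E-box (chr11:69098771-69098800, plus strand, and chr6:145865556-145865585, minus strand). TEF and PER3 are given as the 250 bases before the start (chr15:81811164-81811413, plus strand, and chr4:151044666-151044915, minus strand). TEF carried an E-box in both of its windows, at -127 and -138 from the start of each. Only the window with the site at -138, which lies farther along the gene, is shown. A match is a description of the letters and not evidence of binding.
PER1: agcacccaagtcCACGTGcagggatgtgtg
BHLHE41: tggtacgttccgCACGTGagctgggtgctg
TEF: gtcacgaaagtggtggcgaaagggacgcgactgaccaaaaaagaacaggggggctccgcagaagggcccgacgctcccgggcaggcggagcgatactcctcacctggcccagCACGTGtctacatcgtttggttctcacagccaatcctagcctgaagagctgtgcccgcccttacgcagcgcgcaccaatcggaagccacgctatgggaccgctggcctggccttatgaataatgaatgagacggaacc
PER3: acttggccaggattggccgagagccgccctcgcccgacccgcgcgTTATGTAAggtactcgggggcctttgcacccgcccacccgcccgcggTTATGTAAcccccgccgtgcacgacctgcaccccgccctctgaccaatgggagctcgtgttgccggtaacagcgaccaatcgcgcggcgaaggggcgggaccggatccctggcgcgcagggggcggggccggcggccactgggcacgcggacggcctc

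Expression was measured as RPKM (reads on a gene divided by its length and by the depth of the mouse's library), and the depth estimated from the values was 18.0M to 31.5M reads a mouse, with a median of 21.5M. NR1D1 and BHLHE40 were the most abundant clock genes per length in most groups, with group means of 61.5 to 82.8 and 56.5 to 72.7 RPKM. They were followed by TEF (42.6 to 73.9 RPKM), NR1D2 (23.8 to 36.1 RPKM) and DBP (18.9 to 35.1 RPKM). In EAE mice on day 14, however, TEF (73.9 RPKM) exceeded NR1D1 (61.5 RPKM) and lay above every group mean of BHLHE40. The group means of PER1 (6.24 to 27.9 RPKM), BHLHE41 (9.46 to 14.5 RPKM), ARNTL (5.02 to 7.37 RPKM) and PER3 (2.72 to 7.43 RPKM) were mostly lower and their ranges overlapped, although PER1 in EAE mice on day 14 (27.9 RPKM) was level with NR1D2 in the same mice (27.7 RPKM). PER2 had the lowest level, 1.08 to 2.74 RPKM. The labelled tissue was borne out by its markers: the 8 fast fibre genes, led by ACTA1 and TNNT3, summed to 44083 to 83481 RPKM in each mouse, and the 5 slow fibre genes to 605 to 1735 RPKM. Markers of other cells moved with the groups. The 8 neutrophil genes summed to 3.75 to 10.5 RPKM in Ctrl, 68.0 to 234.7 in OVA and 217.0 to 402.7 in EAE mice on day 14, and MPO, a defining granule gene, had no read in 17 of 30 mice. The fast fibre genes summed to 62142 to 83481 RPKM in Ctrl, 54075 to 69460 in OVA and 44083 to 52724 in EAE mice on day 14, so that EAE mice lay below all others, although 0 of the 8 genes were called higher and 1 lower against Ctrl. The 4 erythrocyte genes in the table summed to 189 to 684, 475 to 1585 and 26.4 to 188 RPKM in Ctrl, OVA and EAE mice on day 14. The 5 fibroblast genes summed to 839 to 1883, 683 to 1030 and 303 to 492 RPKM in the same order. The part of these marker shifts in the results below was not tested. In whole muscle fewer cells of a type and less RNA per cell cannot be told apart.

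**Figure D1:**
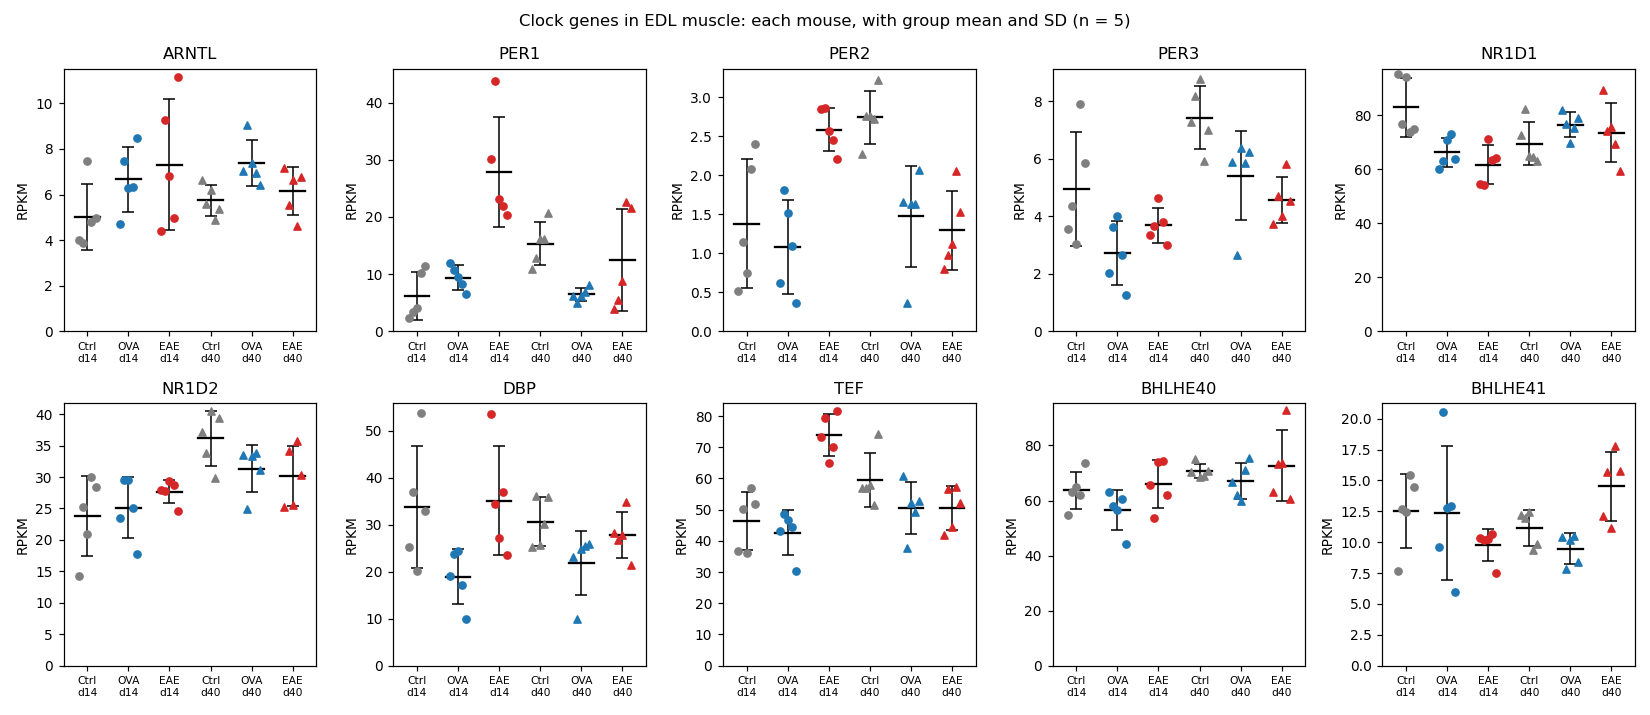
RPKM of the 10 clock genes in each of the 30 mice (circles, day 14; triangles, day 40; grey, Ctrl; blue, OVA; red, EAE), with the group mean and SD (n = 5) in black; every vertical axis starts at 0. PER1 stood at 20.2 to 43.8 RPKM in EAE mice on day 14, above all Ctrl and OVA mice of that day, and spread widely in EAE mice on day 40.

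Mice of a group differed more in some clock genes than in most other genes. The SD of log2(RPKM + 0.1) within groups, pooled over the 6 groups, was 0.68 for PER1, larger than that of 99.1% of 8444 genes, whose median was 0.21. The spread was also wide for PER2 (0.66, above 98.9% of genes), DBP (0.45, above 96.3%) and PER3 (0.44, above 95.6%), followed by BHLHE41 (0.36), ARNTL (0.34), NR1D2 (0.26) and TEF (0.23). NR1D1 (0.16) and BHLHE40 (0.17) varied less than the median gene. The 8444 genes averaged above 3 RPKM over all mice, a level that PER2 did not reach. The width differed between groups. In EAE mice on day 14 the SD was 0.15 for PER2 (above 27.9% of genes), 0.23 for PER3 (54.8%) and 0.45 for DBP (93.5%). In OVA mice on day 40 it was 0.90 (99.9%), 0.52 (99.3%) and 0.59 (99.6%) in the same order. These comparisons of spread are descriptions without a test.

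Differences between groups were tested with limma on log2(RPKM + 0.1), and a gene was called when its fold change exceeded 1.5 in either direction with an adjusted p below 0.05. PER2 did not pass the filter of 3 RPKM in any group, so that 9 of the 10 clock genes were tested. In EAE against Ctrl on day 14, 2 of 9 were called, PER1 and TEF, both higher in EAE, where 26.4% of all tested genes were called and 14.6% were called higher. With NR1D1, 3 of 9 had an adjusted p below 0.05 at any fold (47.8% of all genes), and the same 3 did not overlap between the groups (32.2% of all genes). In EAE against OVA on day 14, 3 of 9 were called, PER1, DBP and TEF, again higher in EAE, against 20.3% of all genes (11% higher), and 2 of 9, PER1 and TEF, did not overlap (26.2%). In OVA against Ctrl on day 14 the test called 0 clock genes and 0.142% of all genes, and 4 clock genes had an unadjusted p below 0.05, as did 9.69% of all genes (821). NR1D1 was the only tested clock gene whose OVA and Ctrl mice did not overlap (2.69% of all genes). These shares show that the calls on day 14 were made among many others, and the share of clock genes called in EAE against Ctrl was near that of all genes. The 2 EAE comparisons share the EAE mice.

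On day 40 few genes of any kind were called. EAE against Ctrl gave 0 of 9 clock genes and 0.46% of all genes, and EAE against OVA gave 1 of 9, BHLHE41, higher in EAE, with 0.209% of all genes called and 0.0349% called higher. OVA against Ctrl gave 0 clock genes and 0% of all genes by limma, and 4 clock genes (ARNTL, PER1, PER3 and DBP) and 272 genes in all (3.12%) had an unadjusted p below 0.05. Between the days, PER1 and NR1D2 were called higher on day 40 in Ctrl mice (9.37% of all genes called, 5.02% higher), PER3 was called higher in OVA mice (3.97%, 2.25% higher), and PER1 was called lower in EAE mice (21.1%, 12.7% lower). The change of the EAE effect between days was called for PER1 and TEF relative to Ctrl, both lower on day 40 (32.7% of all genes, 20.9% lower). Relative to OVA it was called for TEF, lower, and BHLHE41, higher (21.8%, 13.7% lower and 8.16% higher). It was called for 0 clock genes in OVA relative to Ctrl by limma (0%), where PER1 and NR1D1 had an unadjusted p below 0.05, as did 9.3% of all genes.

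**Figure D2:**
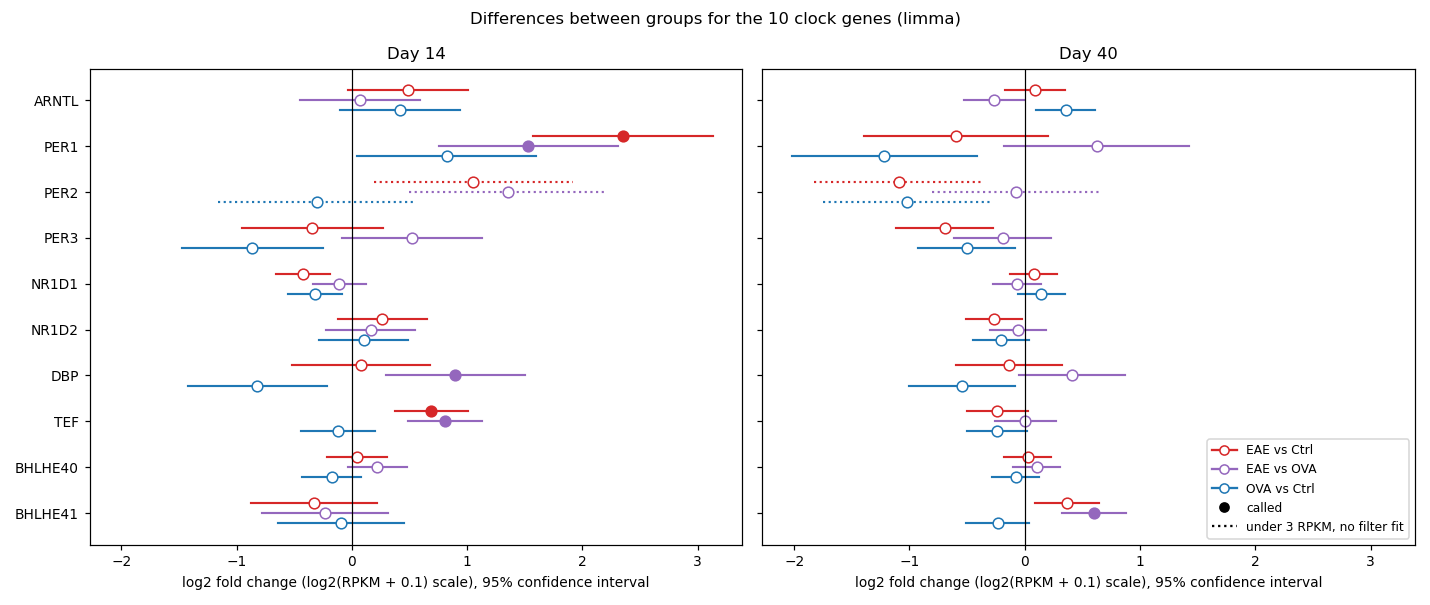
Log2 fold changes with 95% confidence intervals from limma for the 10 clock genes on day 14 (left) and day 40 (right), with EAE vs Ctrl in red, EAE vs OVA in purple and OVA vs Ctrl in blue; filled points were called and dotted lines mark PER2, which lay under the filter. On day 14 the called points were PER1, TEF and DBP and on day 40 only BHLHE41.

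PER1, a period gene that also answers quickly to light, glucocorticoids and other signals in many tissues, lies at chr11:69095217-69109960. On day 14 it was at 2.29, 3.36, 4.00, 10.1 and 11.4 RPKM in Ctrl, at 12.0, 10.8, 9.49, 8.28 and 6.48 RPKM in OVA, and at 30.1, 43.8, 23.1, 22.0 and 20.2 RPKM in EAE mice. Of the Ctrl mice 3 were low and 2 higher, and every EAE mouse lay above every Ctrl and OVA mouse of that day. In order of replicate number, as listed, the values only rose in Ctrl and only fell in OVA mice. The mean was 27.9 ± 9.68 RPKM (SD, n = 5) in EAE and 6.24 ± 4.20 RPKM in Ctrl mice, a log2 fold change of 2.35 (SE 0.37, adjusted p = 0.000129 by limma). Relative to OVA (9.40 ± 2.13 RPKM) the log2 fold change was 1.53 (SE 0.37, adjusted p = 0.00411 by limma). OVA against Ctrl gave 0.82 with an adjusted p of 0.475 by limma.

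On day 40 PER1 was at 10.9, 12.7, 16.1, 16.2 and 20.7 RPKM in Ctrl, at 6.13, 4.99, 6.15, 6.82 and 8.18 RPKM in OVA, and at 3.92, 5.47, 8.83, 22.5 and 21.6 RPKM in EAE mice. The OVA mice lay below all Ctrl mice, and 0.678% of all genes showed such a lack of overlap. Of the EAE mice 2 lay above and 3 below all Ctrl mice. In order of replicate number the Ctrl values again only rose, and the 2 high EAE mice came last. What that order stands for is not given in the sources used here, and its part in the spread was not tested. The log2 fold change of OVA against Ctrl was -1.22, with an unadjusted p of 0.0052 and an adjusted p of 0.999 by limma. EAE mice did not pass the test against Ctrl (-0.60, adjusted p = 0.301 by limma) or OVA (0.62, adjusted p = 0.395 by limma). From day 14 to day 40 PER1 rose in Ctrl mice (1.52, adjusted p = 0.00869 by limma) and fell in EAE mice (-1.43, adjusted p = 0.00417 by limma). The change between days of the EAE effect relative to Ctrl was -2.95 (SE 0.56, adjusted p = 0.000164 by limma). Both the rise in unimmunized mice and the fall in EAE mice enter that value, and relative to OVA the change was -0.91 (adjusted p = 0.212 by limma).

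PER2, a period gene at chr1:91415982-91459324, was at 0.511, 1.14, 0.751, 2.08 and 2.41 RPKM in Ctrl, 0.619, 1.81, 1.51, 1.10 and 0.367 RPKM in OVA, and 2.85, 2.85, 2.57, 2.45 and 2.20 RPKM in EAE mice on day 14. On day 40 it was at 2.27, 2.76, 2.75, 2.72 and 3.22 RPKM in Ctrl, 1.66, 0.363, 1.63, 1.63 and 2.07 RPKM in OVA, and 0.795, 0.980, 1.11, 2.05 and 1.53 RPKM in EAE mice. All EAE mice lay above the OVA mice on day 14, where 26.2% of all tested genes did not overlap. On day 40 both the OVA and the EAE mice lay below all Ctrl mice. Against Ctrl on that day 0.678% (OVA) and 5.22% (EAE) of all tested genes did not overlap. In a fit without the filter, EAE against OVA on day 14 gave a log2 fold change of 1.36 (adjusted p = 0.0251 by limma) and EAE against Ctrl 1.05 (adjusted p = 0.0591 by limma). The change between days of EAE against Ctrl was -2.15 (adjusted p = 0.0052 by limma). The estimated reads behind these levels, 41.8 to 474 a mouse, were the fewest of the 10 genes.

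PER3, the period gene with the D-box pair shown above (chr4:151003652-151044665), was at 3.55, 4.37, 3.04, 7.92 and 5.86 RPKM in Ctrl, 2.02, 3.63, 4.00, 2.67 and 1.27 RPKM in OVA, and 3.37, 3.65, 4.64, 3.80 and 3.01 RPKM in EAE mice on day 14. On day 40 it was at 7.27, 8.18, 8.76, 5.94 and 7.00 RPKM in Ctrl, 5.89, 2.66, 6.39, 5.86 and 6.24 RPKM in OVA, and 3.74, 4.72, 4.01, 5.83 and 4.53 RPKM in EAE mice. It was lower in all EAE than in all Ctrl mice on day 40, a lack of overlap found for 5.22% of all genes. The log2 fold change there was -0.69 (SE 0.20) and missed the threshold (adjusted p = 0.0649 by limma). In OVA mice PER3 was higher on day 40 than on day 14 by 1.01 (adjusted p = 0.0131 by limma), a call lost without replicate 5 of OVA on day 14 (0.77, adjusted p = 0.0643 by limma).

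NR1D1, the repressor of ARNTL at chr11:98767932-98775333, was at 95.2, 76.6, 93.9, 73.6 and 74.8 RPKM in Ctrl, 60.1, 63.1, 70.6, 73.1 and 63.9 RPKM in OVA, and 54.5, 54.2, 71.2, 63.4 and 64.3 RPKM in EAE mice on day 14. All mice of both immunized groups lay below all Ctrl mice of that day. Relative to Ctrl, EAE gave a log2 fold change of -0.43 (SE 0.11, adjusted p = 0.00532 by limma), under the fold threshold, and OVA gave -0.32 (adjusted p = 0.365 by limma). The values of NR1D1 on day 40 spanned 59.3 to 89.4 RPKM and the groups overlapped. Its exons overlap those of Thra on the opposite strand, and whether the reads were counted by strand is not given in the sources used here. For the same reason reads of DBP and Sphk2, and of ARNTL, TEF, BHLHE40 and BHLHE41 and predicted antisense genes at their exons, may not have been told apart.

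NR1D2, the paralog of NR1D1 (chr14:18204054-18239127), was at 14.2, 25.2, 20.9, 30.1 and 28.5 RPKM in Ctrl mice on day 14 and at 37.1, 33.9, 40.5, 29.8 and 39.4 RPKM on day 40. The Ctrl groups overlapped by a single mouse on day 40. The log2 difference was 0.64 (SE 0.16, adjusted p = 0.00612 by limma). It dropped to 0.47, under the fold threshold, without replicate 1 of Ctrl on day 14 (adjusted p = 0.0295 by limma), and to 0.57 with median-of-ratios scaling (adjusted p = 0.00724 by limma). In the other groups NR1D2 ranged from 17.8 to 35.8 RPKM, and it was called in no comparison between treatments.

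ARNTL, the positive arm of the loop (chr7:113207465-113314126), was called in none of the 12 comparisons. On day 14 it ranged from 3.87 to 7.47 RPKM in Ctrl, 4.72 to 8.50 in OVA and 4.38 to 11.1 in EAE mice, and on day 40 from 4.89 to 6.64, 6.41 to 9.05 and 4.63 to 7.17 RPKM. The spread among EAE mice on day 14, an SD of 0.57 on the log2 scale, was larger than that of 97.1% of genes in that group. The log2 fold change of EAE against Ctrl on day 14 was 0.49 (SE 0.25, adjusted p = 0.11 by limma).

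TEF, the PAR bZIP factor with the E-box shown above (chr15:81802421-81826863), was at 36.8, 50.2, 36.2, 57.0 and 51.8 RPKM in Ctrl, 43.1, 48.7, 46.5, 44.4 and 30.2 RPKM in OVA, and 73.4, 79.4, 65.1, 70.1 and 81.6 RPKM in EAE mice on day 14. All EAE mice lay above all Ctrl and OVA mice of that day. Log2 fold changes were 0.69 (SE 0.15, adjusted p = 0.00168 by limma) against Ctrl and 0.81 (SE 0.15, adjusted p = 0.000653 by limma) against OVA. With quantile normalization the value against Ctrl was 0.58, just under the fold threshold (adjusted p = 0.0089 by limma). On day 40 TEF was at 56.8, 56.9, 57.9, 51.4 and 74.3 RPKM in Ctrl, 60.6, 37.7, 52.2, 49.2 and 52.6 RPKM in OVA, and 41.9, 56.5, 44.3, 57.3 and 52.1 RPKM in EAE mice. The groups overlapped, and the EAE effect was lower on day 40 by 0.93 relative to Ctrl (adjusted p = 0.000592 by limma) and by 0.81 relative to OVA (adjusted p = 0.00289 by limma).

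DBP, the other PAR bZIP factor among the members (chr7:45705088-45710203), was at 25.2, 37.0, 20.1, 53.8 and 32.9 RPKM in Ctrl, 19.1, 23.9, 24.4, 17.2 and 9.98 RPKM in OVA, and 53.6, 34.4, 27.1, 36.9 and 23.7 RPKM in EAE mice on day 14. EAE and Ctrl mice covered nearly the same range, 3 of the 5 OVA mice lay below all Ctrl mice, and 4 of the 5 EAE mice lay above all OVA mice. EAE against OVA gave a log2 fold change of 0.90 (SE 0.28, adjusted p = 0.0202 by limma) and EAE against Ctrl 0.08 (adjusted p = 0.837 by limma). OVA against Ctrl gave -0.82 with an unadjusted p of 0.0105 and an adjusted p of 0.365 by limma. The call against OVA was lost without replicate 5 of OVA (0.69, adjusted p = 0.0574 by limma) or replicate 1 of EAE (0.73, adjusted p = 0.0543 by limma). On day 40 DBP ranged from 25.3 to 36.1 RPKM in Ctrl, 9.95 to 25.9 in OVA and 21.4 to 34.9 in EAE mice.

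BHLHE41, an E-box repressor (chr6:145858243-145865558), was at 12.2, 12.0, 12.4, 9.33 and 9.82 RPKM in Ctrl, 10.4, 7.81, 10.2, 10.5 and 8.41 RPKM in OVA, and 12.1, 15.7, 11.2, 17.8 and 15.8 RPKM in EAE mice on day 40. All EAE mice lay above all OVA mice, as 5.87% of all genes did in either direction. The log2 fold change was 0.60 (SE 0.13, adjusted p = 0.0464 by limma), close to both thresholds, and the call was lost in most alternatives and without 9 of the 10 mice left out in turn. On day 14 EAE mice ranged from 7.49 to 10.7 RPKM and OVA mice from 5.93 to 20.5 RPKM, and the effect changed between days by 0.83 (adjusted p = 0.0334 by limma), a call lost without 9 of the 20 mice left out in turn. BHLHE40, its paralog (chr6:108660629-108666925), ranged from 44.3 to 93.0 RPKM over all mice and was called in no comparison.

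Other genes of the clock gave a wider picture of day 14. Of 11 further transcription factors and repressors of the clock, 5 were tested in EAE against Ctrl and 4 were called higher. Among all tested genes 14.6% were called higher. The 5 had a median log2 fold change of 0.88, beside 0.11 for all genes. RORA, an activator of ARNTL, rose by 1.61 (adjusted p = 2.1e-05 by limma), from 5.03 ± 0.93 to 15.8 ± 5.26 RPKM (SD, n = 5). CLOCK, the partner of ARNTL, rose by 1.01, and CRY2 and CRY1, repressors of that pair, by 0.88 and 0.66. NFIL3, a repressor at the D-box, gave 0.54 (adjusted p = 0.066 by limma). Against OVA only CRY2 (1.28) and RORA (1.55) of the 5 were called, both higher, beside 11% of all genes called higher, with a list median of 0.50. On day 40, 0 of 6 were called in EAE against Ctrl, beside 0.46% of all genes. The change between days was called lower for the same 4 genes, RORA by -2.10 among them, beside 20.9% of all genes. Of the 7 tested kinases and ubiquitin ligase components that modify clock proteins, 0 were called on day 14 against either control group, where 26.4% (Ctrl) and 20.3% (OVA) of all genes were called, and their largest value was 0.42 for GSK3B against Ctrl.

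**Figure D3:**
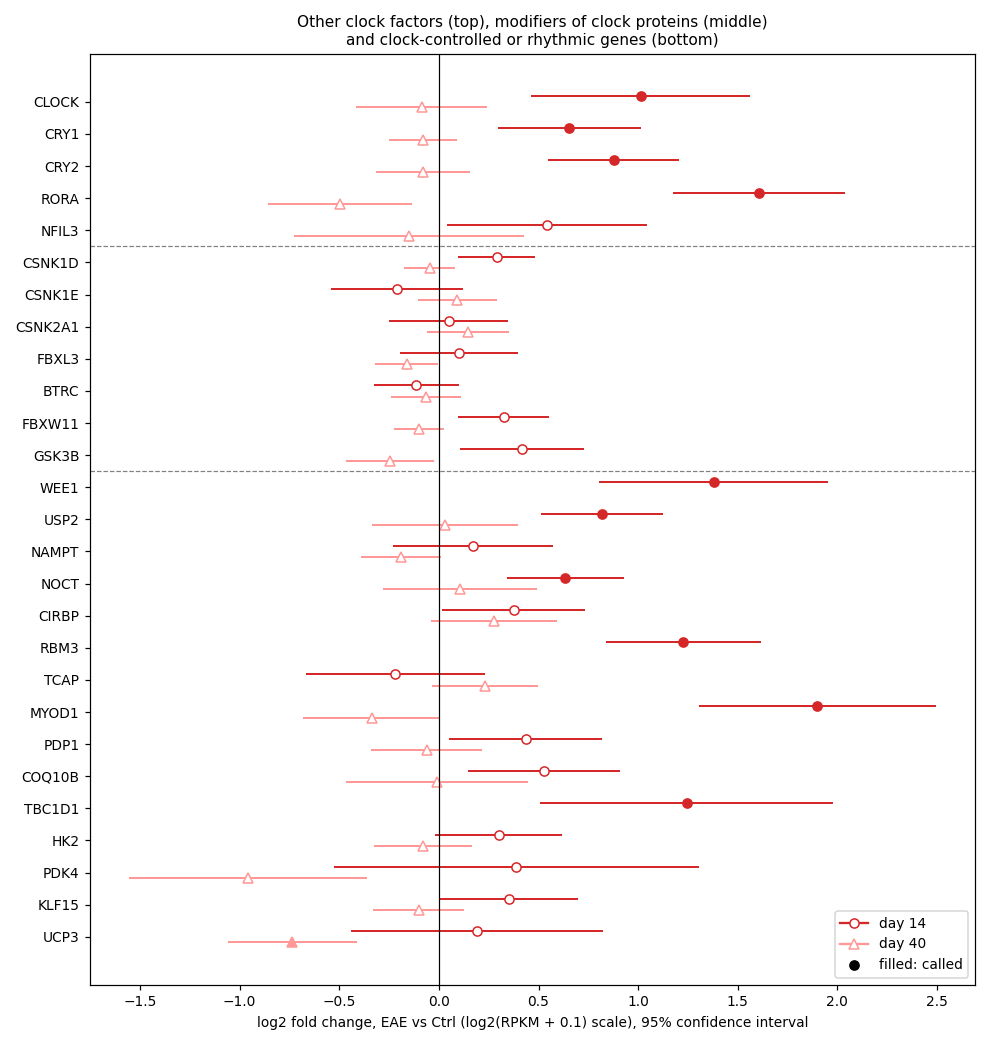
Log2 fold changes of EAE vs Ctrl with 95% confidence intervals from limma on day 14 (red circles) and day 40 (pink triangles) for genes above 3 RPKM, with other clock factors at the top, modifiers in the middle and clock-controlled or rhythmic genes at the bottom; filled symbols were called. On day 14, 4 of 5 factors, 0 of 7 modifiers and 6 of 15 clock-controlled or rhythmic genes were called higher, beside 14.6% of all tested genes, and on day 40 UCP3 was called lower.

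Of 15 clock-controlled or rhythmic genes of muscle, 6 were called higher in EAE against Ctrl on day 14, beside 14.6% of all genes, with a median of 0.44. They were MYOD1, the myogenic factor (1.90), WEE1, a cell cycle kinase (1.38), TBC1D1 (1.24), the cold-inducible RBM3 (1.23), USP2, a deubiquitinase (0.82), and NOCT, a phosphatase (0.63). MYOD1 is also a marker of muscle injury and denervation. Against OVA 5 were called higher (MYOD1, RBM3, WEE1, CIRBP and USP2), beside 11% of all genes, and UCP3, a mitochondrial carrier, was called lower (-0.78). Of 6 glucocorticoid-responsive genes, 3 were called higher in EAE against each control group on day 14, beside 14.6% (Ctrl) and 11% (OVA) of all genes. FKBP5 gave 2.40 against Ctrl and 1.79 against OVA, SGK1 1.39 and 0.80, and TSC22D3 0.66 and 0.67. The rest of the list was ZBTB16, KLF9 and DUSP1, whose values are not given here. PER1 is itself known to respond to glucocorticoids, and the part of these genes in its level was not tested.

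Whether the clock genes varied together among mice of a group was examined after the mean of its group had been subtracted from each mouse, over 30 mice. Of the 45 pairs of members, 27 had a permutation p (100000 shuffles within groups, two-sided) below 0.05 after Benjamini-Hochberg adjustment over 45, 24 with a positive and 3 with a negative r. PER2, PER3, NR1D2, DBP, TEF and BHLHE41 varied together: their 15 pairs gave r of 0.55 to 0.89 (median 0.76), with adjusted permutation p of at most 0.0140 and Spearman's rho of 0.51 to 0.85. Within days the same pairs gave 0.68 to 0.92 on day 14 and 0.26 to 0.88 on day 40. Without the 2 mice farthest from the median of the first gene of each pair they gave 0.37 to 0.80. These 6 genes were grouped after their values were seen, and they share the library and depth of each mouse. The shuffles treat the mice of a group as exchangeable, although PER1 ran with replicate number in several groups. Among 9048 other genes that exceeded 3 RPKM in any group, none had a higher r with PER3 than PER2 had (0.89), and NR1D2 ranked 3 for PER3. For NR1D2 and BHLHE41 the r was 0.85, rank 2 for BHLHE41. HLF, the remaining PAR bZIP factor, lay under 3 RPKM and had an r of 0.91 with PER2 and 0.89 with PER3.

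**Figure D4:**
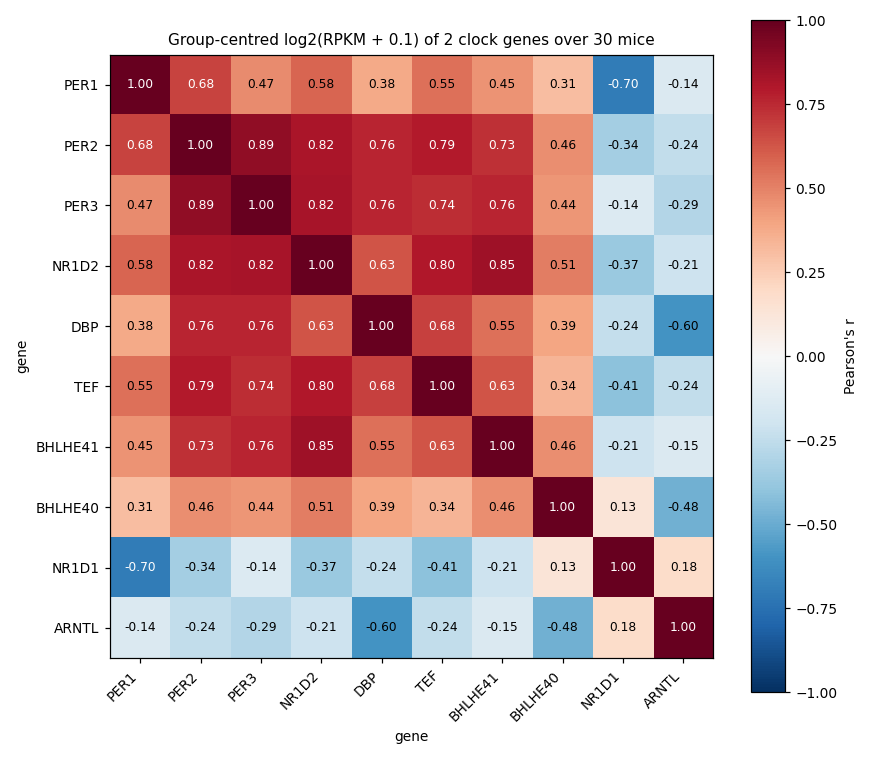
Pearson's r between the clock genes over 30 mice after subtraction of each group's mean of log2(RPKM + 0.1), from -1 (blue) to 1 (red). The 15 pairs among PER2, PER3, NR1D2, DBP, TEF and BHLHE41 ranged from 0.55 to 0.89, while ARNTL and NR1D1 had mostly negative values.

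ARNTL was set against the other 9 clock genes. Its r was negative with 8 of them and was lowest with DBP (r = -0.60, permutation p = 0.00189, adjusted over 9 pairs 0.0170, n = 30). Spearman's rho for that pair was -0.53 (adjusted permutation p = 0.0671). The relation was -0.58 on day 14 and -0.70 on day 40, 15 mice each, with adjusted permutation p of 0.294 and 0.0289. Without the 2 mice farthest from the median of ARNTL, replicate 5 of EAE and replicate 2 of Ctrl on day 14, r was -0.55 (adjusted permutation p = 0.0732), so that the call was lost, as it was with Spearman's rho over all mice. Only 22 genes of 9048 had a lower r with ARNTL than DBP had. BHLHE40 gave -0.48, with an adjusted permutation p of 0.114 over the 9 pairs and 0.0437 over the 45 pairs. By the latter it was among the negative pairs counted above. NR1D1 and PER1 ran opposite to each other (r = -0.70, rho = -0.68, permutation p = 0.0004, adjusted over 45 pairs 0.0015, n = 30). That pair gave -0.67 on day 14, -0.73 on day 40 and -0.64 without the 2 mice farthest from the median of PER1. Its permutation p takes the mice of a group as exchangeable, although PER1 ran with replicate number in several groups. The part of that order in this r was not tested.

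**Figure D5:**
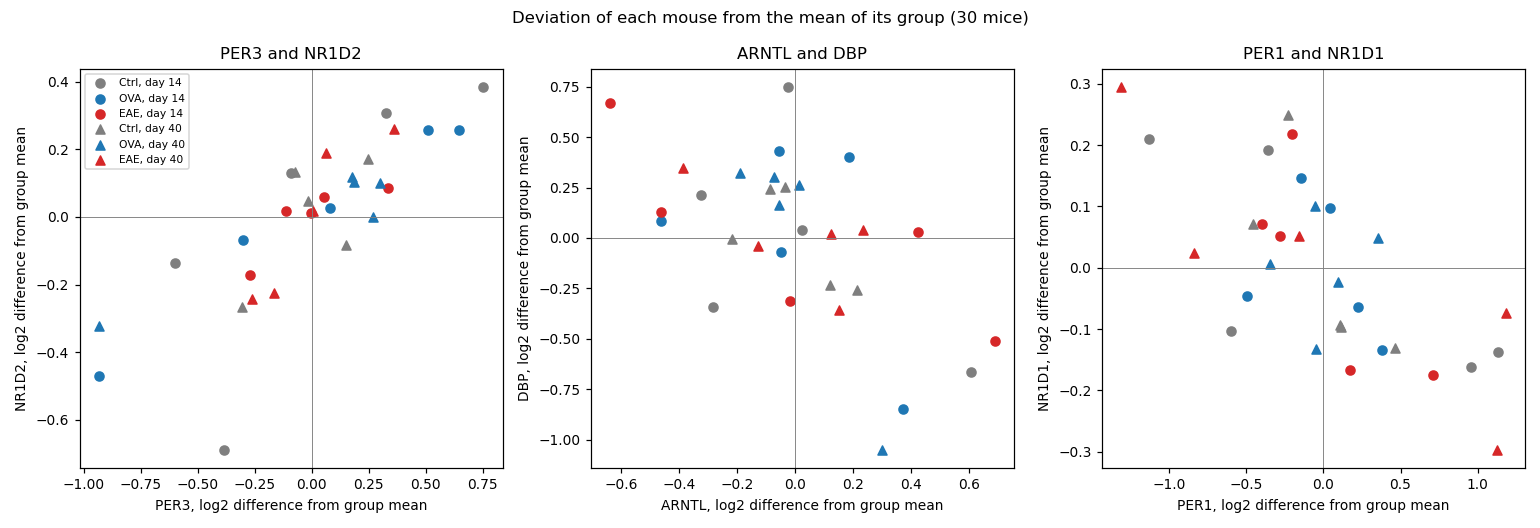
Deviation of log2(RPKM + 0.1) from the group mean in each of the 30 mice for PER3 and NR1D2 (left), ARNTL and DBP (middle) and PER1 and NR1D1 (right), coloured by group with circles for day 14 and triangles for day 40. PER3 and NR1D2 ran along a rising diagonal (r = 0.82), ARNTL and DBP along a falling one (r = -0.60) and PER1 and NR1D1 likewise (r = -0.70).

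The genes most like ARNTL by the same measure, among 9049 genes whose level exceeded 3 RPKM in any group, were STAT5A (r = 0.75), RABGEF1 (0.74), ZHX2 (0.74), NUAK1 (0.72) and APBA3 (0.71), and those least like it were LSMEM1 (-0.73), NREP (-0.72), PRKAG3 (-0.70), DNPH1 (-0.69) and UFSP1 (-0.69). For DBP the highest were MLEC (0.74), TASP1 (0.70), MREG (0.69), CIART (0.68), a repressor of the clock, and EXTL2 (0.66). The lowest for DBP were PPP1R3C (-0.58), APBA3 (-0.56), NR1H3 (-0.55), CHD7 (-0.54) and PRELP (-0.53). APBA3 stood high in the list of ARNTL and low in that of DBP. For ARNTL the 5 highest were closer on day 14 (0.77 to 0.86) than on day 40 (0.28 to 0.68).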

How the data were processed

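Poly(A) RNA of EDL muscle from 30 mice, 5 in each of 6 groups taken from the sample titles, was analysed. The authors aligned reads to mm10 with Subread and counted them over RefSeq transcripts with featureCounts, and deposited a table of RPKM for 21073 genes that holds log2(RPKM + 1). That scale was inferred: in 31 genes, 80.0% of 130 low values were whole multiples of 1 read within 0.1 read after conversion, and 0.0001 marks no read. The share was 18.9% of 233 values (42 genes) when read as RPKM and 48.4% of 254 values (50 genes) when read as ln(RPKM + 1). The worth of 1 read was estimated from the converted values alone, which favours that scale in the comparison. Values were converted to RPKM and tested with limma 3.58.1 (R 4.3.3; lmFit and eBayes with trend) on log2(RPKM + 0.1), so that fold changes of low genes are understated. Genes above a mean of 3 RPKM in at least 1 compared group were kept, the 15 mice of a day were fitted together (all 30 for comparisons involving days), and p was adjusted over all genes tested. limma stands in for EdgeR because RPKM are not counts. Correlations and figures used Python 3.11.15 with numpy 2.4.6. The tests were tested on simulated data. Named genes were all 10 members, the fixed lists of other clock, modifier, rhythmic and glucocorticoid-responsive genes, and the 5 genes most and least like ARNTL and DBP. A further listed gene is not reported here. Members, lists and tests were chosen with earlier results of these data known. Same-group mice had r of 0.941 to 0.992 and no pair of mice shared more than 0.0237% of its values. Nothing says whether the mice were housed or dissected together, and the p-values take the mice as independent, which could not be checked. Alternatives covered the pseudocount, filter, scaling, variance model, fold threshold, samples fitted, replicate block and each mouse left out.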

Additional observations from a re-analysis of the deposited data

Results flagged for a closer look

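In a group of 5 mice, the lowest or highest mouse was singled out where its gap to the next mouse exceeded 0.71 of the range of the group. Of 60 groups checked, chance alone would single out about 1 in 20. On day 40 replicate 2 of the OVA mice was low in PER2 (0.363 RPKM), PER3 (2.66 RPKM), NR1D2 (24.9 RPKM) and DBP (9.95 RPKM), and these 4 genes correlate among mice, so that the values are not independent. On day 14 replicate 5 of the EAE mice was low in NR1D2 (24.5 RPKM) and BHLHE41 (7.49 RPKM), and replicate 5 of the OVA mice was low in TEF (30.2 RPKM). Without replicate 2 of OVA on day 40, the 15 pairs among PER2, PER3, NR1D2, DBP, TEF and BHLHE41 gave r of 0.55 to 0.85, an alternative chosen after seeing the data.

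The EAE effect differed between day 40 and day 14, as tested by the interaction in limma, for PER1 relative to Ctrl (-2.95), for TEF relative to Ctrl (-0.93) and OVA (-0.81), and for BHLHE41 relative to OVA (0.83).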

How the results depend on the processing

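Of the values for single genes and pairs, 1126 kept their direction and their side of the threshold when a single choice of processing was changed, 16 came to pass it, 16 no longer passed it and 12 changed sign. In EAE against Ctrl on day 14, 2 clock genes were called and quantile normalization left 1, PER1. In EAE against OVA on day 40, BHLHE41 was no longer called, leaving 0, with pseudocount 1, no filter, a filter of 1 RPKM, median-of-ratios scaling, quantile normalization, eBayes without trend, all 30 mice or only the 10 mice compared. Fitting only the 10 mice compared called 1 gene in OVA against Ctrl on day 40 (PER1, lower) and 0 in OVA mice between days. Median-of-ratios scaling called 1 gene in Ctrl mice between days, PER1, 2 in EAE mice (PER1 and BHLHE41), and 4 for the change of EAE against Ctrl (PER1, NR1D1, TEF and BHLHE41). In EAE mice between days, 2 were called with a filter of 1 RPKM (PER1 and PER2), 2 with quantile normalization and 4 without the fold threshold. With no filter, the change of EAE against OVA was called for 1 gene, TEF. With adjustment over its 9 pairs, ARNTL had 1 called partner. It had 2 with median-of-ratios scaling, 0 with Spearman's rho, 0 on day 14, 3 on day 40 and 0 without the 2 farthest mice. The causes of these shifts were not tested.

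Leaving out each mouse in turn gave 2 to 3 called genes in EAE against Ctrl on day 14, 2 to 3 in EAE against OVA on day 14, 0 to 1 in EAE against Ctrl on day 40 (PER3, without replicate 4 of Ctrl) and 0 to 1 in EAE against OVA on day 40. It gave 1 to 3 in Ctrl, 0 to 1 in OVA and 1 to 2 in EAE mice between days, 2 to 3 for the change of EAE against Ctrl and 1 to 2 for that of EAE against OVA.

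Small differences changed sign. With median-of-ratios scaling BHLHE40 in EAE against Ctrl on day 14 became -0.027, ARNTL in EAE against OVA on day 14 -0.000481, NR1D2 in EAE against OVA on day 40 0.0023, and BHLHE40 in the change of EAE against Ctrl 0.12 and against OVA 0.017. With quantile normalization BHLHE40 became -0.057 and DBP -0.036 in EAE against Ctrl on day 14, ARNTL -0.021 in EAE against OVA on day 14, BHLHE40 -0.028 in EAE against Ctrl and TEF -0.030 in EAE against OVA on day 40, and BHLHE40 0.031 in the change of EAE against Ctrl. On day 14 the r of ARNTL and PER1 was 0.013. Leaving out single mice, log2 fold changes on day 14 ranged from -0.088 to 0.27 (DBP) and -0.0081 to 0.12 (BHLHE40) in EAE against Ctrl, -0.10 to 0.23 (ARNTL) in EAE against OVA, and -0.069 to 0.22 (NR1D2), -0.20 to 0.00034 (TEF) and -0.31 to 0.14 (BHLHE41) in OVA against Ctrl. On day 40 they ranged from -0.069 to 0.086 (BHLHE40) in EAE against Ctrl and from -0.097 to 0.073 (TEF), -0.14 to 0.00092 (NR1D2) and -0.14 to 0.0071 (NR1D1) in EAE against OVA. Between days DBP ranged from -0.24 to 0.11 in Ctrl and -0.016 to 0.46 in OVA mice. For changes between days, BHLHE40 ranged from -0.11 to 0.041 (EAE against Ctrl), NR1D1 from -0.033 to 0.12 (EAE against OVA), and ARNTL from -0.21 to 0.031 and BHLHE41 from -0.37 to 0.071 (OVA against Ctrl).

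Scaling by median of ratios moved the median log2 change of all genes from -0.15 to -0.0019 for the change of EAE against Ctrl and from -0.16 to -0.02 for that of EAE against OVA, and the share of higher calls from 35.9% to 54.2% and from 37.4% to 56.0%. For EAE against OVA on day 14 that share fell from 54.3% to 44.0%, and for Ctrl mice between days from 53.6% to 33.7%. It rose from 15.0% to 38.1% in EAE against Ctrl on day 40 and from 39.7% to 49.97% in EAE mice between days, and fell from 16.7% to 0% in EAE against OVA on day 40.

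The numbers of the replicates showed no general pairing of the mice. Over 75 pairs of same-numbered mice the correlation of their deviations ranged from -0.73 to 0.72 (median 0.01), with 26 above 0.1. The replicate 1 mice of day 14 did deviate together, with 0.61 (Ctrl and OVA), 0.51 (Ctrl and EAE) and 0.70 (OVA and EAE). Mice of different days reached similar values. Replicate 3 of OVA on day 14 and of Ctrl on day 40 gave 0.72, the highest. Replicate 1 of Ctrl on day 14 and of EAE on day 40 gave 0.59. Replicate 5 of Ctrl and OVA on day 14 gave -0.73. Differently numbered mice were not compared, so that shared handling was not tested. With a replicate block, EAE against OVA on day 40 called 0 clock genes and the change of EAE against Ctrl called 3 (PER1, TEF and BHLHE41); counts in the other comparisons were the same. Estimated depth, 18.0M to 31.5M reads a mouse, limits PER2 most. Intervals from the fit are for differences between means of groups of 5 mice and do not show the spread of single mice.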

Other observations

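NPAS2, a paralog of CLOCK that lay at 0.443 to 1.64 RPKM, had a group-centred r of -0.72 with DBP over 30 mice, lower than every gene above 3 RPKM, and of 0.59 with ARNTL. NOCT, a rhythmic phosphatase, had an r of -0.75 with NR1D1, the lowest of 9048 genes. CSNK1D, a kinase of the PER proteins, had an r of 0.64 with ARNTL, rank 26 of 9048. These pairs were noticed among the listed genes after their values were seen, and are given without a test.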
